A study of Mus musculus with 159 samples.

Results

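Of 159 mammary tumors from the G7 generation of a DO x PyMT breeding, 9 carried B cell transcripts at a level that set them apart, and these lymphoid-rich tumors were compared with the other 150. The members were selected on measured values. For each tumor, Cd79a, Cd79b, Ms4a1, Blk, Cd22 and Pax5 were standardized across the 159 tumors and averaged, and the tumors whose mean, the B cell score, lay above a fixed cutoff were taken. The lowest score inside was 2.25 (next 2.44) and the highest outside was 0.48 (next 0.34), so cutoffs of 1.0 and 2.0 gave the same 9 tumors. All animals were female progeny of Diversity Outbred (DO) mice of the 7th generation and FVB/NJ mice with the MMTV-PyMT transgene, in which the mouse mammary tumor virus promoter drives the polyoma middle T oncoprotein in mammary epithelium. Every animal was untreated and about 100 days old, and each gave 1 tumor and 1 Affymetrix ST array of total RNA, so both groups share the cross, the transgene and the age, while each DO animal carries its own mix of progenitor alleles. The lymphoid-rich tumors came from animals 14580, 14591, 14629, 14721, 14747, 14762, 14783, 14823 and 14897. Values are on the log2 scale, in which a step of 1 is a doubling, and 95% of 1203 olfactory, vomeronasal and taste receptor genes lay at or below a mean of 5.80, which stands here for background. Of the 6 arrays with low correlation to the rest, 0 were lymphoid-rich, and the array medians were 7.08 to 7.17 in lymphoid-rich tumors, within 6.81 to 7.18 over all arrays.

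B cells recognize antigen through a surface immunoglobulin that signals through the CD79A and CD79B chains. In a lymph node they gather in follicles around follicular dendritic cells, which make the chemokine CXCL13, while T cells gather around reticular fibroblasts that make CCL19 and CCL21. Lymphocytes enter a node through high endothelial venules and leave through lymphatic sinuses lined by endothelium and macrophages. In the mouse, the inguinal lymph node lies inside the fat pad of a mammary gland. Lymphoid aggregates that form in inflamed tissue can share the follicle, the T cell zone and the venules.

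Promoters are shown for a pair of the genes that defined the score, for a further B cell gene and for Cxcl13, which had the largest difference among the stroma genes. Each is the 250 bases before a transcription start annotated on GRCm38.p6 from RefSeq, 5′ to 3′ along the gene's strand: Cd79a at chr7:24897247-24897496 (plus strand), Cd22 at chr7:30879029-30879278 (minus strand), Vpreb3 at chr10:75948050-75948299 (plus strand) and Cxcl13 at chr5:95956689-95956938 (plus strand). The Cd22 and Vpreb3 windows lie inside the annotated span of their genes, before an internal start. Capitals mark matches on either strand to the octamer ATGCAAAT bound by OCT factors, to the core CCCNNGGG of EBF1, a B lineage factor, or to the TATA box TATAAA. The motifs shown do not overlap each other.
Cd79a: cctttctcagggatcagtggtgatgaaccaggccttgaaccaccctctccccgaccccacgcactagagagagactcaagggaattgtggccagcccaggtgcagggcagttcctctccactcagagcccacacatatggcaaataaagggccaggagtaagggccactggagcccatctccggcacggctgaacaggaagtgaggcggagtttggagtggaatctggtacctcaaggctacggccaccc
Cd22: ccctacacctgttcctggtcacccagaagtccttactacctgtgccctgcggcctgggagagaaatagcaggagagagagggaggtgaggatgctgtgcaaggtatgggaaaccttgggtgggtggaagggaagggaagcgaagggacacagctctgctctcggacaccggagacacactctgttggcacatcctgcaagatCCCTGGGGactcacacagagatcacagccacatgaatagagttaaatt
Vpreb3: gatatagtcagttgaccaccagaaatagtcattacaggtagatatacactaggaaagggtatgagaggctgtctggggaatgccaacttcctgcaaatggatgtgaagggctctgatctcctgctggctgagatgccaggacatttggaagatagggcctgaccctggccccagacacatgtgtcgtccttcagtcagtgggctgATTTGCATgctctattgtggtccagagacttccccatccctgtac
Cxcl13: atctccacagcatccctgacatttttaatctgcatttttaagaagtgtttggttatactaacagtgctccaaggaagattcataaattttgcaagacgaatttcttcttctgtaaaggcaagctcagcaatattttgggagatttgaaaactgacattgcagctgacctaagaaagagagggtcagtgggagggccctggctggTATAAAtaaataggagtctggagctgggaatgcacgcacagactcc
The capitals are an EBF1 core in Cd22, an octamer in Vpreb3 and a TATA box in Cxcl13, and the Cd79a window holds none of the motifs. Over 32851 promoter windows of the same length, 1.6% held the octamer, 11.8% the EBF1 core and 12.4% the TATA box. Of the 26 B cell genes measured, 19 were matched to a promoter, and the octamer stood in 2 of them, Blnk and Vpreb3, and the EBF1 core in 3, Bank1, Cd22 and Spib. The NF-kB consensus, which 7.25% of all windows held, stood in 1 of 9 stroma promoters, that of Madcam1, and in 3 of the 19 B cell promoters. The TATA box stood in 4 of the 9 stroma promoters and in 3 of the 19 B cell promoters. A gene was counted if any of its windows held the motif, while the shares over all promoters are per window.

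The 6 genes of the score, and 20 other B cell lineage genes that follow them closely, are given as a description without a test. Cd79a, the signaling chain of the B cell receptor, had a lowest value of 8.55, a median of 9.67 and a highest of 11.37 in lymphoid-rich tumors, against 4.54, 4.86 and 5.38 in the other tumors. Since the other tumors lay at background, Cd79a was at least 18-fold higher. Ms4a1, which encodes CD20, was 7.25 to 10.66 in lymphoid-rich tumors and 4.31 to 5.05 in the others, at least 8.13-fold higher. Of the 6 score genes, 5 had no overlap between the groups, and Blk, a B cell kinase, overlapped at its edge (6.48 to 8.66 against 5.46 to 6.61). Cr2, the complement receptor of mature B cells and follicular dendritic cells, ranged from 6.92 to 10.29 in lymphoid-rich tumors and from 4.78 to 5.44 in the others. Fcer2a, the CD23 receptor of follicular B cells, ranged from 7.58 to 10.72 against 5.08 to 6.04. Among the 20 lineage genes, 7 had no overlap, and the median difference over the list was 1.92. Ebf1, which fibroblasts and adipocytes also express, differed by 1.73 ± 0.25 (SE) and overlapped widely (8.86 to 10.25 against 6.14 to 9.89). RNA of a whole tumor cannot separate a larger number of B cells from more RNA in each.

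**Figure D1:**
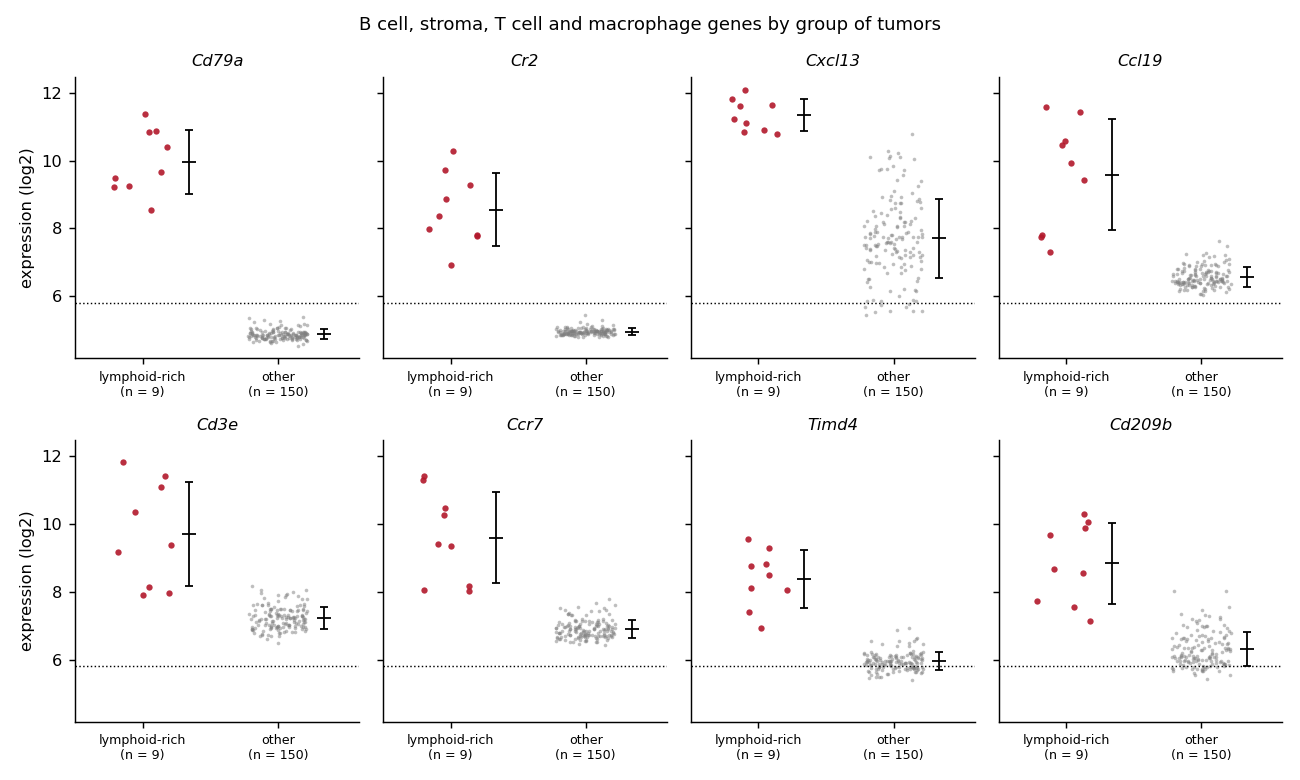
Log2 expression of 8 genes in each tumor, lymphoid-rich tumors (n = 9) in red and other tumors (n = 150) in gray, with mean and SD beside the points and the background level of 5.80 as a dotted line. Cd79a and Cr2 were at background in every other tumor, Cxcl13 spread over 5.43 to 10.79 there, and Ccl19, Cd3e and Ccr7 ran low in 3 of the lymphoid-rich tumors.

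Outside those 26 genes, 18928 genes were tested with limma, and 1587 (8.38%) were higher and 0.814% lower in lymphoid-rich tumors at an adjusted p under 0.05. The groups had been set by 6 B cell genes, so these counts describe what moved with B cell transcripts. The median difference over the genes tested was -0.02. Of the genes called in limma, 91.2% were higher. That split depended on scaling, with 51.2% higher after quantile normalization (1375 higher, 1311 lower) and 74.4% without the shift to the median array (1342 higher, 461 lower), and the median over all genes was then -0.05 and -0.06. A difference of at least 1 was found in 332 genes that were higher and in 0 that were lower. Without regard to p, 5 genes were lower by at least 1, the lowest by -2.86, and these did not pass the test. In 19 genes (0.100%) every lymphoid-rich tumor lay above every other tumor. They included Ccr7, Ltb, Ikzf3 and H2-Oa, and, named after their values were seen, the lymphocyte genes Btla, Slamf6, Rhoh and Lax1.

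Genes of lymphoid stroma and follicles rose unevenly, with 8 of 12 measured members higher and a median difference of 0.34. Cxcl13, the chemokine that draws B cells into follicles, had a lowest value of 10.78, a median of 11.24 and a highest of 12.09 in lymphoid-rich tumors, against 5.43, 7.65 and 10.79 in the other tumors. It averaged 11.34 ± 0.47 in lymphoid-rich tumors (SD, n = 9) and 7.70 ± 1.17 in the others (SD, n = 150), a difference of 3.64 ± 0.39 (SE, adjusted p = 5.08e-15), and 8 of 9 lymphoid-rich tumors lay above every other tumor. Ccl19, the T zone chemokine, ran from 7.29 over a median of 9.94 to 11.60 in lymphoid-rich tumors, against 6.04, 6.51 and 7.63 in the others (difference 3.02 ± 0.16, SE, adjusted p = 4.3e-40). The 2 chemokines differed in evenness, since the SD among lymphoid-rich tumors was 0.47 for Cxcl13 and 1.63 for Ccl19. Among the other tumors it was 1.17 for Cxcl13 and 0.29 for Ccl19. For each gene limma used a variance shared by both groups. The SE and adjusted p of Ccl19 therefore do not carry the wider spread of the lymphoid-rich tumors in full. The B cell survival factor Tnfsf13b was higher by 0.78 ± 0.12, Bst1, a surface enzyme of stromal cells, by 0.81 ± 0.20, and Clu, which follicular dendritic cells express strongly, by 0.46 ± 0.13 (SE). Madcam1, an addressin of gut venules that also marks stroma at the node margin, was higher by 0.39 ± 0.06, the lymphocyte survival cytokine Il7 by 0.30 ± 0.05 at means below background in both groups, and Tnfsf11, the RANK ligand, by 0.26 ± 0.09 (SE). Tnfsf11 lost its call as deposited (adjusted p = 0.123), after quantile normalization (0.312), by the rank-sum test (0.0614) and with 1 tumor left out (0.206). Values of Coch, Pdpn, Il33 and Ch25h differed by -0.03 to 0.20 and did not pass the test. Pdpn, a membrane protein of reticular fibroblasts, was 8.20 to 9.14 in lymphoid-rich tumors and 6.59 to 11.14 in the others.

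Most genes of the lymphotoxin pathway and of homing chemokines and receptors were higher in these tumors, which B cell transcripts had chosen. Some are also genes of B cells, such as Cd40, Ltb and Ccr6, and their rise is not separate from that choice. Ltb, the membrane chain of lymphotoxin, ranged from 7.03 to 9.57 in lymphoid-rich tumors and from 5.80 to 6.94 in the others, without overlap (difference 1.90 ± 0.10, SE, adjusted p = 3.1e-40). Lta, its partner chain, was at least 1.43-fold higher, and Cd40, the receptor by which B cells take T cell help, was higher by 1.22 ± 0.08 (SE). Ltbr, the lymphotoxin receptor of stromal cells, was lower by 0.18 ± 0.06 (SE, adjusted p = 0.045), and with the adipocyte score as a term 0 genes of the pathway were called lower. In all, 8 of 13 genes of this pathway were higher and 1 lower, with a median of 0.45. Of 11 homing chemokines and receptors, 8 were higher, with a median of 1.15, and Cxcl13 and Ccl19 belong to this list too. Its members included Ccr6, a receptor of mature B cells, at least 1.82-fold higher, and Cxcl12, which stroma and venules make, at 1.28 ± 0.19 (SE). Ccl20 (0.03) and Ccl25 (-0.14), chemokines of gut and thymus epithelium, did not pass the test.

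T cell genes were higher as a list but not in every tumor. Of 18 genes of the T cell receptor complex and its signaling, 17 were higher, with a median of 1.27, and Bcl11b (0.35 ± 0.14, SE, adjusted p = 0.12) did not pass. Cd3g, a chain of the receptor complex, had a lowest value of 6.85, a median of 8.95 and a highest of 11.35 in lymphoid-rich tumors, against 5.16, 6.05 and 7.33 in the others (difference 3.07 ± 0.21, SE, adjusted p = 2e-29). Cd3e ran from 7.90 over 9.40 to 11.83 in lymphoid-rich tumors, against 6.50, 7.21 and 8.16 in the others, and overlapped. The co-receptors Cd4 (2.31 ± 0.14, SE) and Cd8a (1.78 ± 0.12) were higher together, as was Foxp3, the regulator of regulatory T cells, by 0.65 ± 0.07. Of 12 T cell subset genes, 10 were higher, and Gata3, which luminal epithelium also expresses, was 11.04 to 11.69 in lymphoid-rich tumors and 7.02 to 11.87 in the others.

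Genes of naive lymphocytes and of effector cells were both higher. Among 10 naive genes, 9 were higher with a median of 1.60, and among 18 effector and exhaustion genes, 12 were higher with a median of 0.31. The lists were not tested against each other, and 5 of the 18 effector genes, against 0 naive genes, had means at or below background in the other tumors (4 also in lymphoid-rich tumors). Ccr7, the receptor for CCL19 and CCL21 that guides lymphocytes into nodes, ranged from 8.03 to 11.41 in lymphoid-rich tumors and from 6.44 to 7.79 in the others, without overlap (2.69 ± 0.14, SE). B cells carry this receptor too, so its rise is not separate from the choice of the tumors. S1pr1, the exit receptor of lymphocytes, which endothelium also expresses, was higher by 1.46 ± 0.14, and Il7r, the receptor of resting T cells, by 2.63 ± 0.20 (SE). Igfbp4 (0.20) did not pass. Nkg7, a granule protein of killer cells, was higher by 2.47 ± 0.22 and the chemokine Ccl5 by 2.46 ± 0.20 (SE). The perforin gene Prf1 was higher by 0.64 ± 0.09 and the inhibitory receptor Pdcd1 by 0.22 ± 0.06. Gzmk was 5.49 to 5.97 against 5.35 to 6.18 and Ifng 5.55 to 5.84 against 5.46 to 6.27, both around background and not past the test. The NK cell list had 9 of 10 members higher, with Il2rb, a cytokine receptor chain that T cells share, at 1.72 ± 0.15 (SE) and Klre1 (0.04) not past the test, and in 6 of the 10 the lymphoid-rich mean was still at or below background.

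Macrophage genes of the lymph node sinus and medulla were higher in 6 of 8 cases, with a median of 0.94. Cd209b, a lectin of marginal zone and sinus macrophages, had a lowest value of 7.13, a median of 8.67 and a highest of 10.28 in lymphoid-rich tumors, against 5.42, 6.18 and 8.01 in the other tumors (difference 2.54 ± 0.19, SE, adjusted p = 2.2e-25). Timd4, a phosphatidylserine receptor of resident macrophages, ran from 6.93 over 8.50 to 9.55 in lymphoid-rich tumors, against 5.40, 5.92 and 6.94 in the others (2.43 ± 0.11, SE, adjusted p = 1.2e-47), and overlapped at its lowest lymphoid-rich tumor. Siglec1, the CD169 of subcapsular sinus macrophages, was higher by 1.52 ± 0.17 and Vcam1, an adhesion molecule of macrophages and stroma, by 1.26 ± 0.21 (SE). Marco (0.38 ± 0.07), a scavenger receptor of medullary macrophages, and Cd5l (0.43 ± 0.09, SE) were higher, and both did not pass the exact rank-sum test (adjusted p = 0.062 and 0.075), and Cd5l lost its call with 1 tumor left out (adjusted p = 0.0558). Cd163 (0.61 ± 0.26, SE, adjusted p = 0.14) and Vsig4 (0.28 ± 0.21) did not pass in limma, and Cd163 passed the exact rank-sum test (adjusted p = 0.0479). Of 15 general macrophage genes, 4 were higher with a median of 0.39. By the exact rank-sum test 9 of the 15 passed and 5 of the 8 sinus genes, so the shares of the lists differed in limma and were close in the rank-sum test. Adgre1, a general macrophage marker, was 7.85 to 8.75 in lymphoid-rich tumors and 6.53 to 9.43 in the others.

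Endothelial genes of the node were mixed. Of 9 lymphatic and sinus genes, 6 were higher, with a median of 0.49: Lyve1, a hyaluronan receptor of lymphatic vessels and some macrophages, by 1.83 ± 0.31, Stab2, a scavenger receptor of sinus endothelium, by 0.88 ± 0.07, and Prox1, the regulator of lymphatic identity, by 0.59 ± 0.11 (SE). Clec4g, a lectin of sinus endothelium, was 5.91 to 6.84 in lymphoid-rich tumors and 5.63 to 6.33 in the others (0.40 ± 0.05, SE). Reln, Itga2b and Foxc2 did not pass (0.10 to 0.23). Of 10 high endothelial venule genes, 3 were higher, with a median of 0.03. Glycam1, an L-selectin ligand of these venules, had the largest difference of the genes tested, at 3.67 ± 0.80 (SE, adjusted p = 0.00025), but it is also a milk protein gene and spread over 5.20 to 12.95 in the other tumors, against 9.50 to 12.57 in lymphoid-rich tumors. Chst4, the sulfotransferase of the venules, was 5.30 to 7.32 in lymphoid-rich tumors and 5.06 to 5.97 in the others (adjusted p = 2.5e-20). Ackr1, a chemokine carrier of venules, was higher by 0.49 ± 0.12 (SE), and by 0.10 with the adipocyte score as a term (adjusted p = 0.732), where 2 of the 10 genes were called. Fut7, Gcnt1, Chst2, B3gnt3, Podxl, Sele and Emcn differed by -0.14 to 0.32 and did not pass, except Emcn with array weights (adjusted p = 0.0462).

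**Figure D2:**
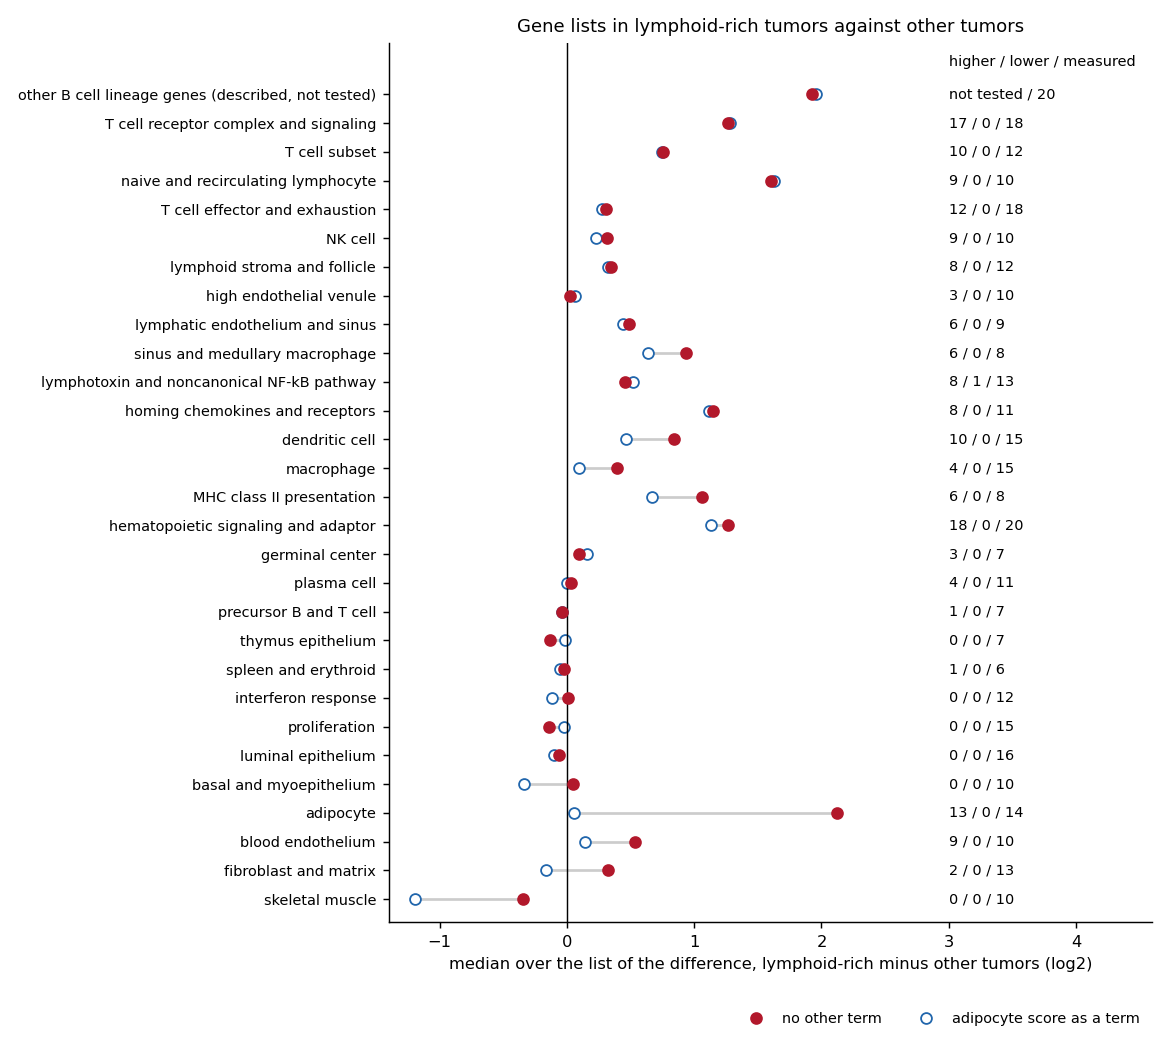
Median over each gene list of the log2 difference, lymphoid-rich minus other tumors, without another term (red) and with the adipocyte score as a term (open blue), with the number of genes higher, lower and measured at right. Naive lymphocyte and T cell receptor lists had medians of 1.60 and 1.27 without the term and 1.62 and 1.28 with it, and the adipocyte list had a median of 2.12 without it.

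Genes of later B cell stages were higher in part. Of 7 germinal center genes, 3 were higher, with a median of 0.10. Gcsam, a germinal center B cell protein, was 5.79 to 7.35 in lymphoid-rich tumors and 5.19 to 6.28 in the others, at least 1.42-fold higher. Rgs13, a signaling regulator of germinal center B cells, was 4.41 to 5.60 in 8 lymphoid-rich tumors and 7.77 in that of animal 14629, against 4.28 to 5.14 in the others. Fas passed at its edge (0.33 ± 0.11, SE, adjusted p = 0.05) and lost the call under several alternatives. Bcl6, the master regulator of germinal centers, which other cells also express, was 8.92 to 9.67 in lymphoid-rich tumors and 7.60 to 10.08 in the others (0.10 ± 0.13, SE, adjusted p = 0.73). Mybl1 (0.01), S1pr2 (-0.08) and Il21 (-0.01) did not pass either. Of 11 plasma cell genes, 4 were higher, with a median of 0.03. Igha, the IgA heavy chain constant region, ran from 6.70 over 8.83 to 10.69 in lymphoid-rich tumors, against 5.11, 5.40 and 8.06 in the others, at least 7.02-fold higher. Jchain, which joins IgA dimers, was at least 3.08-fold higher, and the plasma cell regulators Prdm1 (-0.11) and Xbp1 (0.00) did not pass.

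Genes of other lymphoid organs had few calls, near the 8.38% of all genes tested that were called higher. Of 7 genes of precursor B and T cells, Il7r alone was higher in limma, Cd34, a marker of progenitors and endothelium, passed the exact rank-sum test (difference 0.58, adjusted p = 0.047), and Rag1, Rag2, Dntt and Vpreb1 had means at or below background in both groups. No thymus epithelium gene was called by limma (0 of 7, 0 higher and 1 lower at an unadjusted p under 0.05, 0 by the rank-sum test). Prss16, a thymus protease, was called lower after quantile normalization (-0.26, adjusted p = 0.012) and without the low-correlation arrays (-0.18, adjusted p = 0.023). Of 6 spleen and erythroid genes, Spic, a factor of red pulp and bone marrow macrophages, was higher (5.54 to 7.52 against 5.09 to 5.93), and the erythroid genes Alas2, Slc4a1 and Ermap (-0.03 to 0.02) did not pass. Tlx1 and Nkx2-5, factors of spleen development, differed by -0.05 and -0.12.

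Most class II genes were higher, few class I genes were, and no gene of the interferon response list passed the test. Of 8 genes of MHC class II presentation, 6 were higher with a median of 1.06, and H2-Oa, a B cell modulator of peptide loading, had no overlap (6.66 to 8.91 against 5.62 to 6.50). B cells express class II genes, so H2-Oa and the other genes of this list are not separate from the choice of the tumors. Ciita, the class II regulator, was higher by 1.23 ± 0.08 (SE). Of 15 dendritic cell genes, 10 were higher with a median of 0.84, among them Siglech of plasmacytoid cells (1.77 ± 0.11, SE) and Xcr1 of cross-presenting cells (1.01 ± 0.08). With the adipocyte score as a term, 4 of 8 class II genes and 8 of 15 dendritic cell genes (median 0.46) were higher. Of 9 genes of MHC class I presentation, 2 were higher, also 2 by the rank-sum test, with a median of 0.32. By limma 0 of 12 interferon response genes were called in either direction, also 0 at an unadjusted p under 0.05 and 0 by the rank-sum test, with a median of 0.01. Over all genes tested, limma called 8.38% higher and 0.814% lower, shares at which 12 genes can hold 0 calls. Of 20 hematopoietic signaling genes, 18 were higher with a median of 1.26, led by Ikzf3, a lymphocyte transcription factor, at least 8.05-fold (7.44 to 10.54 against 5.26 to 7.32). B cells also express Ikzf3 and others of these genes, so their rise is not separate from the choice of the tumors.

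Fat genes were higher in the same tumors. Of 14 adipocyte genes, 13 were higher, with a median of 2.12. Adipoq, the adipocyte hormone adiponectin, had a lowest value of 7.86, a median of 10.21 and a highest of 10.95 in lymphoid-rich tumors, against 5.23, 6.90 and 11.50 in the others (difference 2.78 ± 0.55, SE, adjusted p = 4e-05). The adipocyte score, the mean of the standardized list, ranged from 0.27 to 2.09 (median 1.24) in lymphoid-rich tumors and from -1.29 to 2.72 (median -0.34) in the others. All 9 lymphoid-rich tumors were above the median of the others, and none was above their highest. Cyp2e1 (3.03 ± 0.60) and Pck1 (2.59 ± 0.45, SE), metabolic genes of liver and fat, stood among the 15 largest differences, and Cyp2e1 lost its call with the adipocyte score as a term (0.43, adjusted p = 0.391). Of 10 blood endothelium genes, 9 were higher, led by Cldn5 (1.03 ± 0.16) and Pecam1 (1.03 ± 0.15, SE). With the adipocyte score as a term, 975 genes (5.15%) were higher, 899 of them among the 1587, and 38 were lower. The T cell receptor list then had 18 of 18 genes higher, the naive list 9 of 10, the sinus macrophage list 6 of 8 (median 0.64) and the stroma list 6 of 12, with Clu (adjusted p = 0.11) and Tnfsf11 (adjusted p = 0.35) no longer called. The general macrophage list had 0 of 15 and the blood endothelium list 2 of 10. The cause of the shared rise of fat and lymphoid genes was not tested.

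No epithelial list had a gene past the test, where 8.38% of all genes tested were called higher and 0.814% lower. At that share of lower calls, lists of 10 to 16 genes would mostly hold none, so their 0 lower calls do not depart from it. By limma 0 of 16 luminal genes were called in either direction (2 lower and 0 higher at an unadjusted p under 0.05, 1 lower by the rank-sum test), with a median of -0.06. Krt8, a keratin of luminal cells, was 12.11 to 12.58 in lymphoid-rich tumors and 10.39 to 12.97 in the others. Epcam, an adhesion molecule of epithelium, was 10.22 to 10.75 against 8.96 to 11.26, and its difference of -0.20 ± 0.09 (SE, adjusted p = 0.2) passed the test after quantile normalization (-0.23, adjusted p = 0.037), without the low-correlation arrays (-0.23, adjusted p = 0.00453) and by the exact rank-sum test (adjusted p = 0.0129). No basal gene was called (0 of 10, with 1 higher and 2 lower unadjusted and 0 by the rank-sum test). Proliferation genes had 0 of 15 called, 0 also unadjusted and by the rank-sum test, with a median of -0.14. Mki67, a marker of dividing cells, was 9.07 to 9.85 in lymphoid-rich tumors and up to 10.37 (median 9.64) in the others.

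The genes that were lower had small differences. The most negative was Ptgs2, the inducible prostaglandin synthase COX-2, with a lowest value of 6.19, a median of 6.84 and a highest of 8.18 in lymphoid-rich tumors, against 6.06, 7.89 and 10.82 in the others (difference -0.93 ± 0.28, SE, adjusted p = 0.016). Moxd1 (-0.91 ± 0.27), Edil3, a matrix protein (-0.90 ± 0.30), Pkp1, a desmosome protein (-0.80 ± 0.26), and Col11a1, a collagen chain (-0.60 ± 0.18, SE), followed. All the 15 most negative genes overlapped between the groups. With the adipocyte score as a term none of these 15 stayed past the threshold (adjusted p of 0.071 to 0.54). Ptgs2, Edil3 and Pkp1 also lost their call with 1 tumor left out (adjusted p = 0.0645, 0.0603 and 0.0728). The share of genes lower was 0.296% without the tumor of animal 14629, 0.317% without that of animal 14721 and 0.465% without that of animal 14823.

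**Figure D3:**
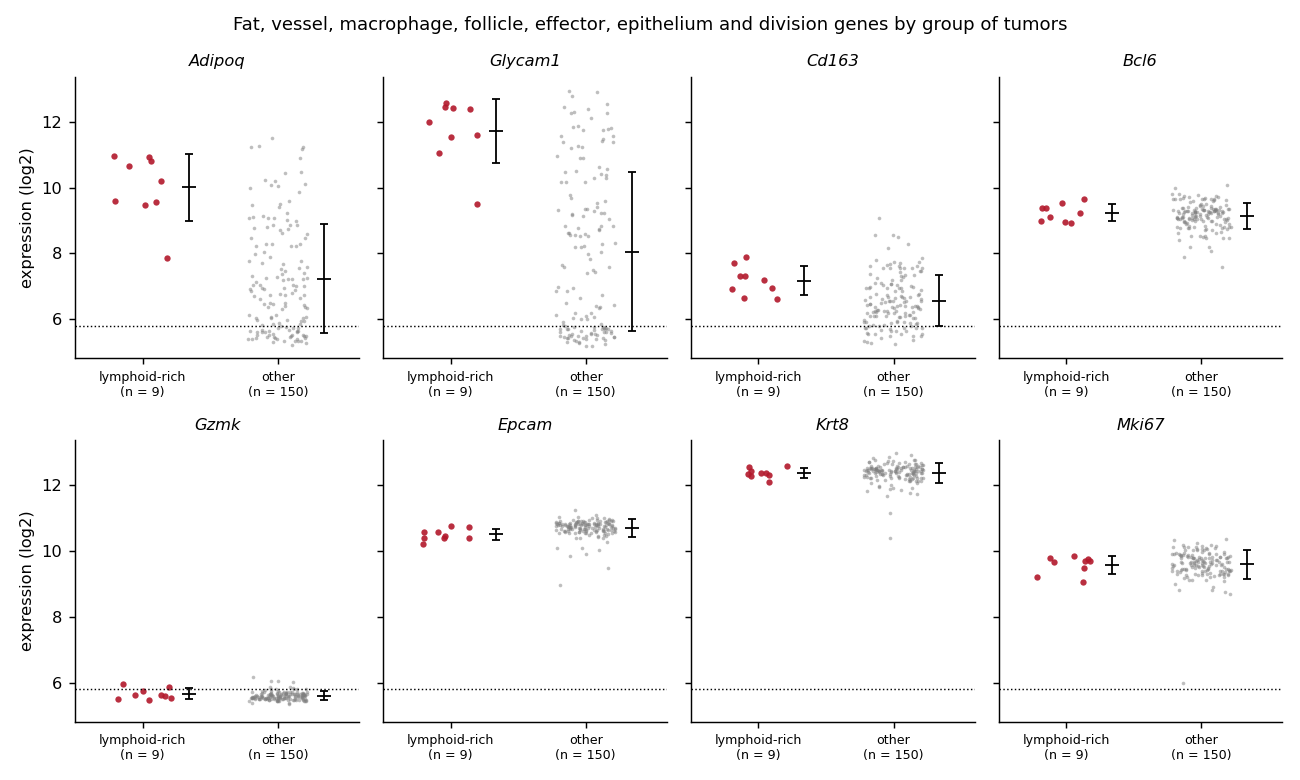
Log2 expression of 8 genes in each tumor, lymphoid-rich tumors (n = 9) in red and other tumors (n = 150) in gray, with mean and SD beside the points and the background level of 5.80 as a dotted line. Adipoq and Glycam1 were in the upper range of the other tumors, while Bcl6, Epcam, Krt8 and Mki67 lay inside the range of the others and Gzmk lay around background in both groups.

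The 9 tumors were not alike. In the tumors of animals 14897, 14762 and 14747, with B cell scores of 2.25, 2.44 and 3.42, Cd3e was 7.96, 7.90 and 8.15, Ccl19 was 7.74, 7.29 and 7.81, and Ccr7 was 8.03, 8.16 and 8.04. These values of Cd3e lay within the range of the other 150 tumors, as did the T cell receptor scores of 0.40, 0.13 and 0.46 (others up to 0.56). Their Ccr7 values, and Ccl19 in animals 14897 and 14747, lay above every other tumor. In the same 3 tumors Cxcl13 was 10.84, 11.12 and 10.92 and Cr2 was 6.92, 7.81 and 8.38, where the other 150 tumors reached at most 5.44 for Cr2. The tumor of animal 14580, with a score of 2.73 between them, had 9.40 for Cd3e and 9.44 for Ccl19. At the upper end, the tumors of animals 14721 and 14823 had 11.83 and 11.41 for Cd3e, 11.60 and 11.45 for Ccl19 and 9.87 and 10.28 for Cd209b. The tumor of animal 14629 departed from this order. Its B cell score was 4.77 and its Cd3e 11.09, but its Cd209b was 7.72 and Marco 5.89, and its score for sinus macrophages was 0.95, against 2.89 in the tumor of animal 14591 with the next lower B cell score. It also had the highest germinal center score (2.88) and the highest Gcsam value (7.35). The tumor of animal 14591 carried skeletal muscle genes (score 2.22, against -0.60 to -0.40 in the other lymphoid-rich tumors) and the lowest adipocyte score, 0.27.

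**Figure D4:**
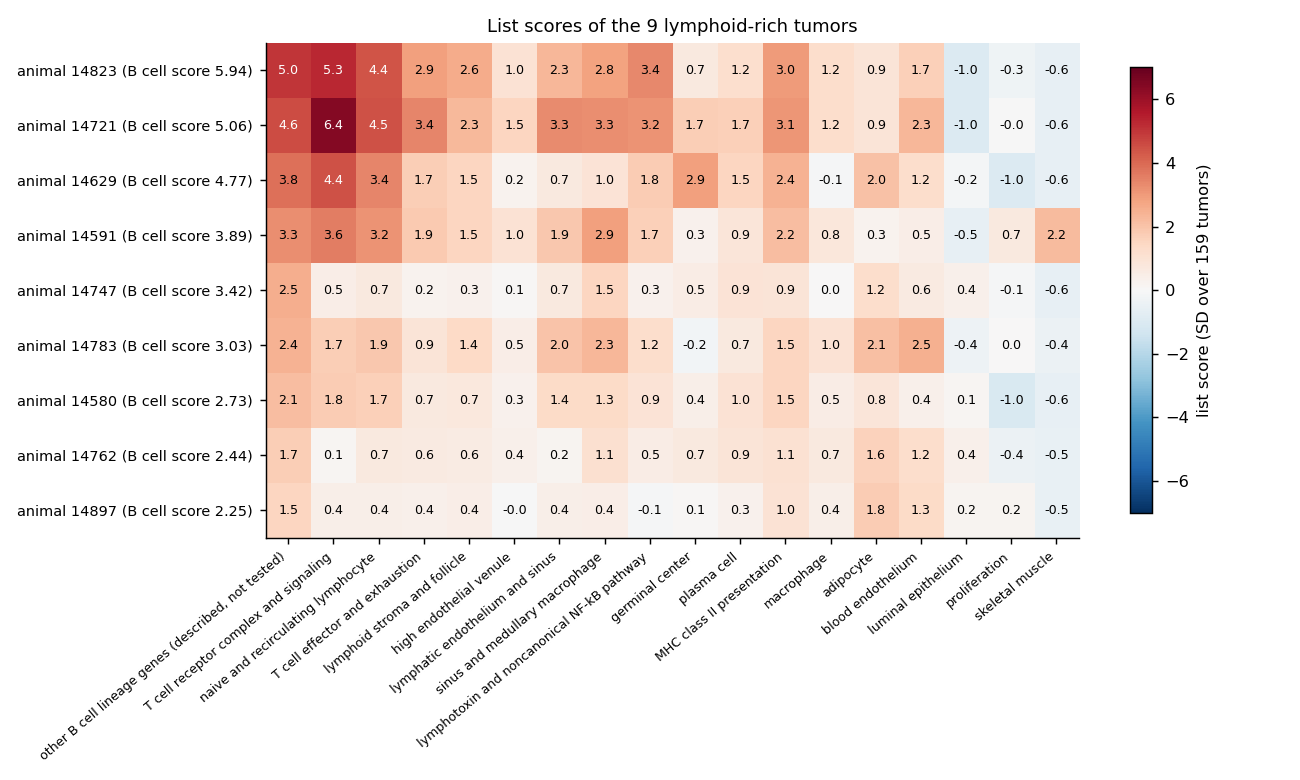
Scores of 18 gene lists (columns) in the 9 lymphoid-rich tumors (rows, with the B cell score falling from top to bottom), each the mean of values standardized over 159 tumors. T cell, naive and lymphotoxin scores were low in the tumors of animals 14747, 14762 and 14897, and the germinal center score was highest in that of animal 14629.

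Within the 9 lymphoid-rich tumors, 822 genes (4.34%) rose and 23 fell with the B cell score in limma, and 639 of those that rose were also among the 1587. The T cell receptor list had 15 of 18 genes rising, with a median slope of 0.79 log2 per unit of the score, beside a median of 0.00 over all genes tested. The naive list had 9 of 10 rising. The sinus macrophage list had 1 of 8, the high endothelial venule list 1 of 10, the adipocyte list 0 of 14 (0 also falling) and the luminal list 0 rising and 1 falling, Erbb3, a growth factor receptor. The relation of list scores to the B cell score was tested by exact permutation, two-sided and adjusted over 76 relations (38 lists in each group of tumors). The T cell receptor score had r = 0.907 and rho = 0.9 (exact permutation p = 0.00126, adjusted 0.00383, and 0.00203, adjusted 0.00593), and r = 0.868 (exact permutation p = 0.0115) without the 2 tumors farthest from the median. The luminal score fell with the B cell score, with r = -0.813 and rho = -0.783 (exact permutation p = 0.01, adjusted 0.0224, and 0.0172, adjusted 0.0336). Without those 2 tumors, which had the highest B cell scores, r was -0.518 (exact permutation p = 0.235) over a narrower range. The stroma score had r = 0.89 and rho = 0.817 (exact permutation p = 0.00163, adjusted 0.00459, and 0.0108, adjusted 0.0236), and r = 0.683 (exact permutation p = 0.0895) without those 2 tumors. The sinus macrophage score (r = 0.641, rho = 0.667, exact permutation p = 0.0676, adjusted 0.117, and 0.0589, adjusted 0.0952, r without 2 tumors 0.298) and the adipocyte score (r = -0.324, rho = -0.3, exact permutation p = 0.387, adjusted 0.507, and 0.437, adjusted 0.527, r without 2 tumors -0.0675) did not pass. The slope counts ranged from 443 to 930 genes in either direction when 1 tumor was left out, with 443 without that of animal 14823.

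**Figure D5:**
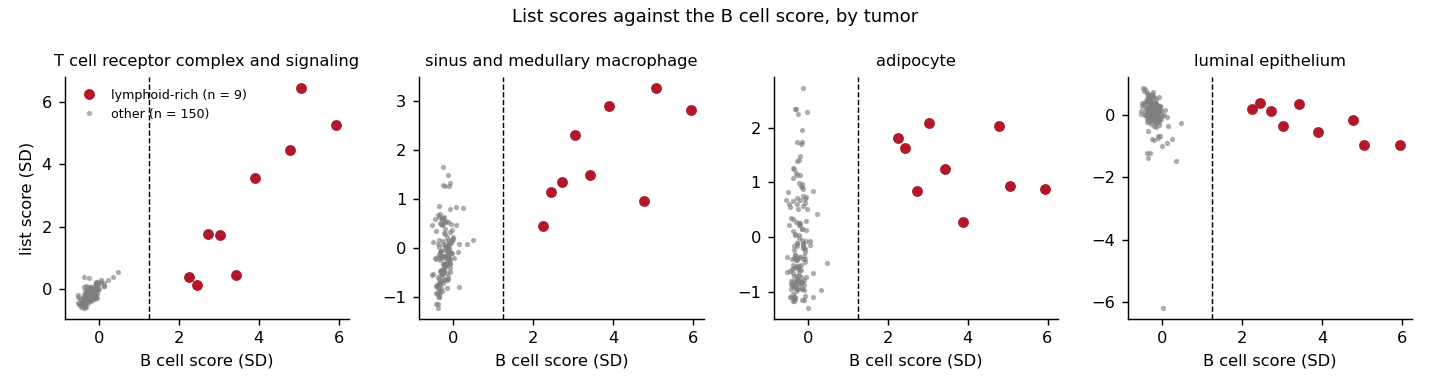
Scores of 4 gene lists against the B cell score, lymphoid-rich tumors in red (n = 9) and other tumors in gray (n = 150), with the cutoff as a dashed line. The T cell receptor score rose with the B cell score among the 9 (r = 0.907), and the adipocyte score did not follow it (r = -0.324).

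Among the other 150 tumors the B cell score ran from -0.54 to 0.48, and 6439 genes rose and 7186 fell with it in limma (72% of genes), so membership of any list cannot be read there. In these tumors the score followed the mean of the background receptor genes (r = 0.671, rho = 0.448, permutation p = 1e-05 for each, adjusted 8.44e-05 and 7.6e-05, r without the 2 farthest 0.57), where 1e-05 is the smallest p the permutations can give. In lymphoid-rich tumors the background receptor score was -0.27 to 0.09 (median -0.15), within -0.64 to 3.0 (median -0.08) in the others.

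The lymphoid-rich tumors stood in 4 of 6 blocks of 100 animal numbers, with 2 of 27, 1 of 26, 4 of 41 and 2 of 28 tumors. Within these 4 blocks the median difference was 1.0 to 2.17 for the T cell receptor list, 0.29 to 0.43 for the stroma list, 0.82 to 1.17 for the sinus macrophage list, 1.10 to 3.61 for the adipocyte list and -0.14 to -0.07 for the luminal list. The block with 1 lymphoid-rich tumor gave the values farthest from 0, except for stroma. In the blocks with 2 or 4 such tumors, the T cell receptor list had 1.0 to 1.45 and the adipocyte list 1.10 to 2.29. As to lymph node tissue or infiltration, the list score lay above that of every other tumor in 6 of the 9 tumors for T cell receptor genes, in 5 for stroma, in 4 for sinus macrophages, in 4 for lymphatic and sinus endothelium and in 1 for venules. A node taken with the tumor and an organized lymphoid aggregate within it can express many of the same genes, and from whole tumor RNA they cannot be told apart.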

How the data were processed

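Total RNA of 159 tumors was hybridized to Affymetrix ST arrays. Per the study's methods, the authors brought the scans into BRB ArrayTools and scaled them to a median array, with no correction for batch. Deposited values are log2 (3.47 to 13.88); for background correction and probe summarization the sources used here give no method.

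From every array, its median deviation from the median array was taken off. Of 20718 probe sets, 18965 had 1 symbol in the platform annotation, 688 had several and 1065 were not listed. Each of 18954 genes was represented by its probe set of highest mean. Differences were fitted with limma 3.58.1 (R 4.3.3) over the 9 and 150 tumors, with Benjamini-Hochberg adjustment over all genes and calls at an adjusted p under 0.05 (1587 genes higher, 154 lower). This fit assumes equal spread of a gene in both groups. Cd3g had an SD of 1.72 in lymphoid-rich and 0.48 in other tumors, and Cd8a 1.30 and 0.20. For such genes the SE and p are smaller than the spread of the lymphoid-rich tumors would give. Cxcl13, with 0.47 and 1.17, goes the other way. By the exact rank-sum test, which does not use this variance, 1697 genes were higher. The B cell score cutoff was 1.25. Lower bounds set the group at or below background to 5.80. The 9 members, the gene lists and the genes named were chosen with earlier results of these data known. Named were the score genes, the 15 largest differences each way, the 4 largest and the smallest per list, and every member of the stroma, venule, germinal center, sinus macrophage and study gene lists; further list members are given as examples chosen after their values were seen. The deposit labels name each animal, and the animals were taken as independent.

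Tested on simulated data over 18954 genes, the comparison of groups called 48% of 50 genes with a difference of 0.25, 88% at 0.5, 92% at 1 and 98% at 2, and 0.048% of 18754 unchanged genes. These rates describe the simulated data alone. For genes of unequal spread, such as Cd3d (SD 1.21 in lymphoid-rich and 0.12 in other tumors), they were not tested. Nor were they tested for genes that move together. The number of arrays limits the precision. Alternatives tried were unshifted values, quantile normalization, choosing probe sets by variance, leaving out 6 low-correlation arrays, blocks of 100 animal numbers as a term, genes above background alone, cutoffs of 1.0 and 2.0, an exact rank-sum test, array weights per group, a trended and robust variance, leaving out each lymphoid-rich tumor and, for scores, first principal components. The adipocyte score as a term was added after the data were seen. Scores and plots were made in matplotlib 3.10.9, pandas 2.3.3, scipy 1.17.1 and numpy 2.4.6 under Python 3.11.15. Metastasis, survival, the G5 arrays and other experiments of the study were not analysed here.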

Additional observations from a re-analysis of the deposited data

Results flagged for a closer look

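Among 225 named genes, 15 had 1 of the 9 lymphoid-rich tumors far from the others, with a gap to the nearest tumor above 0.493 of the range of the 9. Chance flags about 1 in 20 genes, and 11 of the 15 lay in the tumor of animal 14591. There, skeletal muscle genes were high: Acta1 was 11.86 (nearest 7.895), Ckm 11.45 (7.143), Myh4 9.919 (5.915), Myl1 10.8 (7.173) and Tnnt3 10.96 (6.831). The same tumor had low fat genes, with Adipoq at 7.858 (nearest 9.487) and Retn at 7.477 (9.734), and high interferon genes, with Usp18 at 10.71 (9.423) and Mx2 at 6.967 (5.625). Bub1 was 8.361 (7.932) and Ermap 7.074 (6.789) there. In the tumor of animal 14629, Rgs13 was 7.773 (nearest 5.597) and the salivary gene Smr3a 5.97 (5.155). Glycam1 was lowest in the tumor of animal 14762, at 9.499 (nearest 11.04). Pkp1 was highest in the tumor of animal 14721, at 8.075 (nearest 7.297), a gene that was lower in lymphoid-rich tumors as a group.

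Probe sets that could not be given 1 gene name were outside the comparison. Of 688 with several symbols, 56 were higher and 3 lower in lymphoid-rich tumors in limma, with a largest difference of 3.58. Among 1065 not listed, the largest difference was 3.71.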

How the results depend on the processing

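No paired analysis was possible because all tumors form 1 labeled group whose replicate numbers are shared by no other group. The 1587 higher genes became 975 with the adipocyte score as a term and 1248 to 1613 when 1 lymphoid-rich tumor was left out. The share of genes lower, 0.814%, depended on the processing: 2.44% as deposited, 6.93% after quantile normalization, 1.79% without the low-correlation arrays, 2.74% by the exact rank-sum test, 2.54% with array weights, 0.201% with the adipocyte score as a term, and 0.296% to 0.803% with 1 lymphoid-rich tumor left out. The T cell receptor list had 11 genes higher among genes above background, since fewer of its genes were tested there, and 17 to 18 with 1 tumor left out. The luminal list had 1 gene lower after quantile normalization, 1 without the low-correlation arrays and 1 by the exact rank-sum test, and 0 to 0 with 1 tumor left out. The adipocyte list had 0 genes higher with its own score as a term, by construction. Genes following the score within the 9 tumors numbered 443 to 930 with 1 tumor left out. With the adipocyte term Car3, itself a gene of that score, had -0.4184 and Dcn -0.01222, and both lost their call. Of the named genes called, 35 lost the call with that term, 7 by the rank-sum test, 6 after quantile normalization, 6 as deposited and 3 with blocks of animal numbers. The 35 include genes of the adipocyte score, such as Adipoq, Cd36 and Car3, for which the loss is built in. The causes were not tested.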

Other observations

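Neutrophil genes were called higher in 6 of 10 cases in limma but in only 1 of 10 by the exact rank-sum test. Over all 18928 genes tested, 1587 were higher in limma and 1697 by the rank-sum test. Cxcr2, a chemokine receptor of neutrophils, was 5.94 to 8.87 in lymphoid-rich tumors and 4.66 to 9.73 in the others, at least 2.79-fold higher. The granule gene Ngp was 4.91 to 9.76 (median 5.70) in lymphoid-rich tumors and 4.78 to 10.80 (median 5.12) in the others, and by the exact rank-sum test Ngp (adjusted p = 0.145), Retnlg (adjusted p = 0.0962) and S100a9 (adjusted p = 0.235) were not past the threshold. High Ngp values were limited to the tumors of animals 14580, 14721 and 14823 (8.24, 9.76 and 9.27), with 4.91 to 6.02 in the rest of the 9. Il1b (0.07) did not pass. Of 8 mast cell genes 4 were higher, among them the protease genes Cpa3 (1.30 ± 0.32) and Mcpt4 (0.94 ± 0.24, SE), and 0 with the adipocyte score as a term.

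Inflammatory chemokines and their receptors were higher in 7 of 13 cases. Cxcl9, an interferon-induced ligand of activated T cells, was 7.50 to 9.83 in lymphoid-rich tumors and 5.67 to 9.46 in the others (1.38 ± 0.28, SE, adjusted p = 4.4e-05). Cxcl10 (0.06) and Cxcl11 (0.01), the related ligands, and Ccl3 (-0.33) did not pass. Among 8 genes the study followed up or named, Angptl4 (1.03 ± 0.24), Txnip (0.61 ± 0.14) and Zbtb16 (0.84 ± 0.29, SE) were higher, and 0 of 8 were called with the adipocyte score as a term. Zbtb16 also lost its call with blocks of animal numbers (adjusted p = 0.0879), as deposited (0.0619), after quantile normalization (0.0523) and with 1 tumor left out (0.118).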
